A study of Mus musculus with 12 samples.

Results

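The expression profile described here is the effect of losing Acly on adipocytes at day 4 of differentiation. It rests on 6 of the 12 libraries of the series, picked by their labels: 3 of Acly-/- adipocytes and 3 of Aclyf/f adipocytes. All cells came from adipose tissue of C57Bl/6 mice and had been immortalised with SV40 as preadipocytes. Both adipocyte groups had reached confluence and then received the same adipogenic cocktail, which included rosiglitazone, a drug that activates the adipocyte receptor PPARgamma. Aclyf/f cells carry Acly between loxP sites with the gene still in place and are the controls, whereas Acly-/- cells lack it. The other 6 libraries are confluent preadipocytes of both genotypes at day 0, 3 each, and enter below only where the effect of Acly loss is compared between stages. The sources used here do not give how and when the gene was removed, which exons went or which fat depot was used. They do not say either whether replicate libraries come from separate animals, clones or cultures, so p-values reflect the spread among these libraries alone, which may be technical.

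Acly encodes ATP citrate lyase, which splits citrate that has left the mitochondria and so supplies acetyl-CoA to the cytosol and nucleus. That acetyl-CoA is the carbon source for fatty acid and cholesterol synthesis and the donor for acetylation of histones and other proteins. A second enzyme, acetyl-CoA synthetase 2 (Acss2), makes it from acetate. In differentiating fat cells the receptor PPARgamma and the factor C/EBPalpha turn on the adipocyte genes, and ChREBP, the product of Mlxipl, raises lipogenic genes when glucose metabolism is high.

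Levels are in FPKM, a count of fragments corrected for transcript length and for the size of the library, and 0.01 is the lowest value the table holds. Both adipocyte groups carried the fat cell markers that their labels call for. Cidec, which lets lipid droplets fuse, stood at 455, 449 and 442 FPKM in the Aclyf/f libraries and 199.7, 172 and 170.3 in the Acly-/- libraries. Its means in the preadipocyte groups were 0.0589 and 0.198 FPKM. Leptin (Lep) and the gluconeogenic enzyme Pck1, genes of mature white fat, were listed at the floor in all 6 adipocyte libraries, and Ucp1, the uncoupling protein of brown fat, was at the floor in 5 of them. Markers of other cells were low. Of 17 macrophage and leukocyte markers in the table, 15 stayed under 1 FPKM in every adipocyte library, the pan-leukocyte gene Ptprc and the myeloid integrin Itgam were at the floor throughout, and the summed level was 2.03 to 2.84 FPKM in Aclyf/f and 2.46 to 3.37 in Acly-/- libraries. The endothelial sum was 4.44 to 7.16 against 4.51 to 6.89, the skeletal muscle sum 2.13 to 2.24 against 2.64 to 2.82, the mesothelial sum 0.457 to 0.728 against 0.706 to 1.20 and the neuronal sum 3.27 to 4.01 against 2.27 to 3.19. Larger differences were seen for the smooth muscle and pericyte markers, 28.0 to 29.8 against 6.62 to 6.95, and for the bone and cartilage markers, 9.19 to 10.4 against 15.7 to 17.3. Those rested mainly on Mcam, Myh11 and Runx2, which are described below. Relative depth, estimated from low values, was 1.51 to 1.93 times the shallowest library of the series in the Aclyf/f group and 1.27 to 1.55 times in the Acly-/- group. The 10 genes with the highest FPKM held 7.03% to 7.23% of a library's total in Aclyf/f and 8.28% to 9.07% in Acly-/- adipocytes.

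The targeted gene checks the labels. Acly (chr11:100476352-100528000 on mm10) stood at 814, 722 and 724 FPKM in the Aclyf/f adipocytes and 13.2, 12.8 and 11.02 in the Acly-/- adipocytes, a 60.99-fold difference of means, and at 89.5, 86.2 and 84.9 in the Aclyf/f and 11.9, 12.4 and 11.9 in the Acly-/- preadipocytes. Every library matched its label. The low level left in Acly-/- cells may include fragments from exons outside the deleted part.

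Across the transcriptome the effect was broad. With limma on log2(FPKM + 1), 6452 of 11777 genes tested differed at a Benjamini-Hochberg adjusted p under 0.05, which is 54.8%. Of these, 3013 were higher without Acly (25.6% of genes tested) and 3439 lower (29.2%). The log2 fold change was at least 1 in size for 936 of the called genes (7.95%), 416 higher (3.53%) and 520 lower (4.42%). In 7442 genes (63.2%) the values of the 3 Acly-/- libraries and the 3 Aclyf/f libraries did not overlap. The median log2 fold change over all genes tested was -0.02. Higher genes made up 46.7% of the calls with FPKM as deposited, 51.7% of 6426 calls after quantile normalization and 36.4% of 6073 calls after scaling all libraries to an equal sum of FPKM (equalised FPKM sums), so counts near the background share are not read as a direction. The added 1 shrinks the log2 fold changes below for weakly expressed genes. Counts of genes changed by 2-fold or more use that log2 fold change, at 1 or more in size. Folds of single genes are ratios of mean FPKM. For each list of genes the number of members that passed the test is given, to be read against these background shares, which are repeated for some lists only. Among the counts near them were the falls in the lipid droplet, autophagy, ATP synthase and histone acetylation lists. The rises in the Wnt, IGF and proteasome lists were near them too. So were both the rises and the falls in the antigen presentation, integrated stress response and NRF2 lists.

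**Figure D1:**
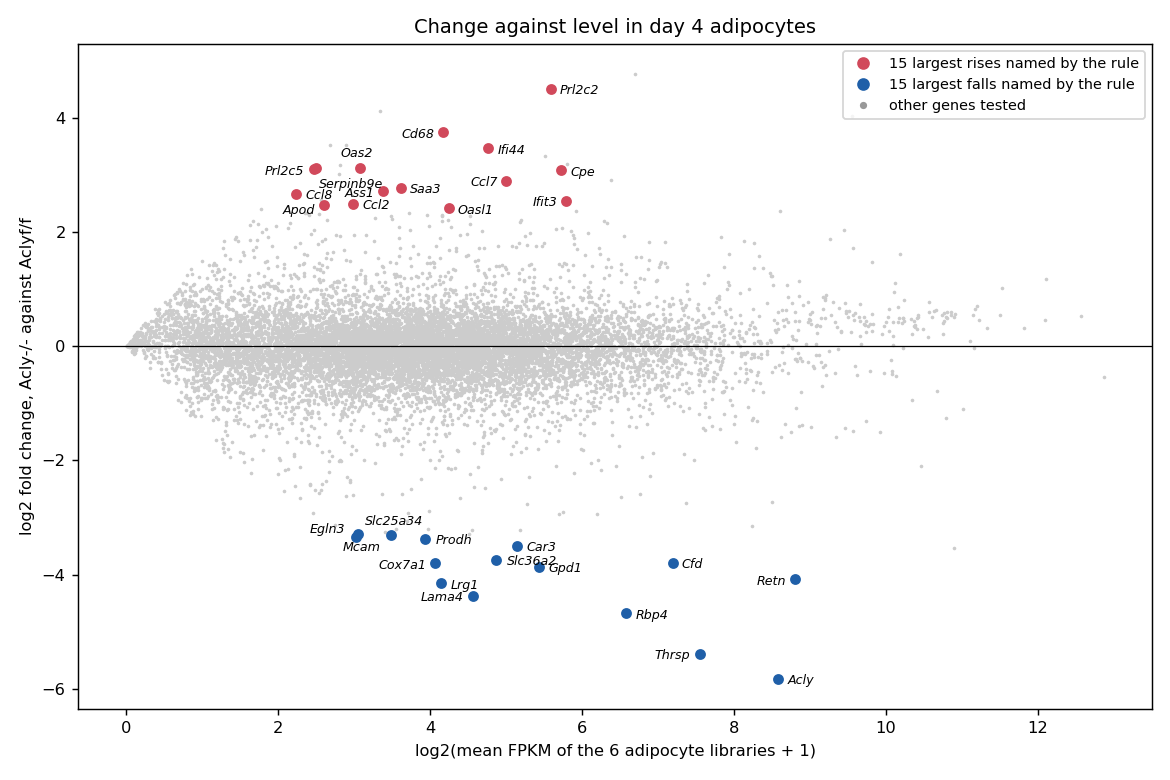
Each point is a gene tested, with log2(mean FPKM + 1) of the 6 adipocyte libraries on the x axis and the log2 fold change of Acly-/- against Aclyf/f adipocytes on the y axis. The 15 largest rises (red) and 15 largest falls (blue) that meet the naming rule are labelled, from Prl2c2 at 4.51 down to Acly at -5.82, and grey points beyond them are short RNAs, histone genes, predicted genes or genes that were not called.

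Among the transcription factors of fat cells, the PPARgamma gene itself differed little and did not pass the test, while several other factors fell. Pparg stood at 161, 162 and 159.7 FPKM in Aclyf/f and 151, 132 and 159 in Acly-/- adipocytes. The highest Acly-/- library came within 1 FPKM of the lowest Aclyf/f library, and the log2 fold change of -0.13 (SE 0.08, adjusted p = 0.208) did not pass, although equalising FPKM sums without short RNAs moved it to -0.20 (adjusted p = 0.0445). Cebpa, the partner factor C/EBPalpha, was lower, at 154, 128 and 121 against 69.1, 67.8 and 91.2 FPKM (-0.82, adjusted p = 0.000287). Of the 27 adipogenic transcription factors tested, 12 fell and 6 rose, with a median of -0.15. The falls included Stat5a, a signal transducer of growth hormone and prolactin that promotes fat cell formation, from 31.6, 31.7 and 31.1 to 11.2, 12.4 and 10.9 FPKM. Its close relative Stat5b fell 2.69-fold, and the coactivator Ppargc1b 2.98-fold. The 6 that rose were Klf4, Cebpd, Gata2, Ebf1, Med1 and Nr2f2. Klf4, an early adipogenic factor, had a mean of 17.2 FPKM in Aclyf/f and 38.7 in Acly-/- cells (log2 fold change 1.13, SE 0.07). Cebpd, also an early factor, rose 1.86-fold, and Gata2, which restrains adipogenesis in precursors, rose from a mean of 0.408 to 1.88 FPKM. In bulk RNA a smaller number of fully differentiated cells and less RNA per cell cannot be told apart, and this holds for all adipocyte genes below.

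Hormones and other secreted products of mature fat cells fell by large factors, while a few secreted proteins rose. Adipoq, the hormone adiponectin, stood at 546, 549 and 536 FPKM in Aclyf/f adipocytes and at 59.5, 60.7 and 61.97 in Acly-/- adipocytes. The tight values leave a wide gap between genotypes, with means 8.95-fold apart (log2 fold change -3.14, SE 0.10, adjusted p = 7.25e-11). Cfd, the complement protease adipsin, fell from 313, 259 and 245 to 19.4, 18.4 and 17.9 FPKM, which is 14.7-fold. Resistin (Retn) fell 17.3-fold and the retinol carrier Rbp4 29.3-fold. Among the 16 adipokine genes tested, 10 fell and 4 rose (median -0.45). Those that rose included the chemokine Ccl2, lipocalin 2 (Lcn2) and Metrnl. Lcn2 stood at 9.85, 7.26 and 8.305 against 23.9, 20.5 and 18.1 FPKM. Nampt and Serpina3n did not pass the test.

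**Figure D2:**
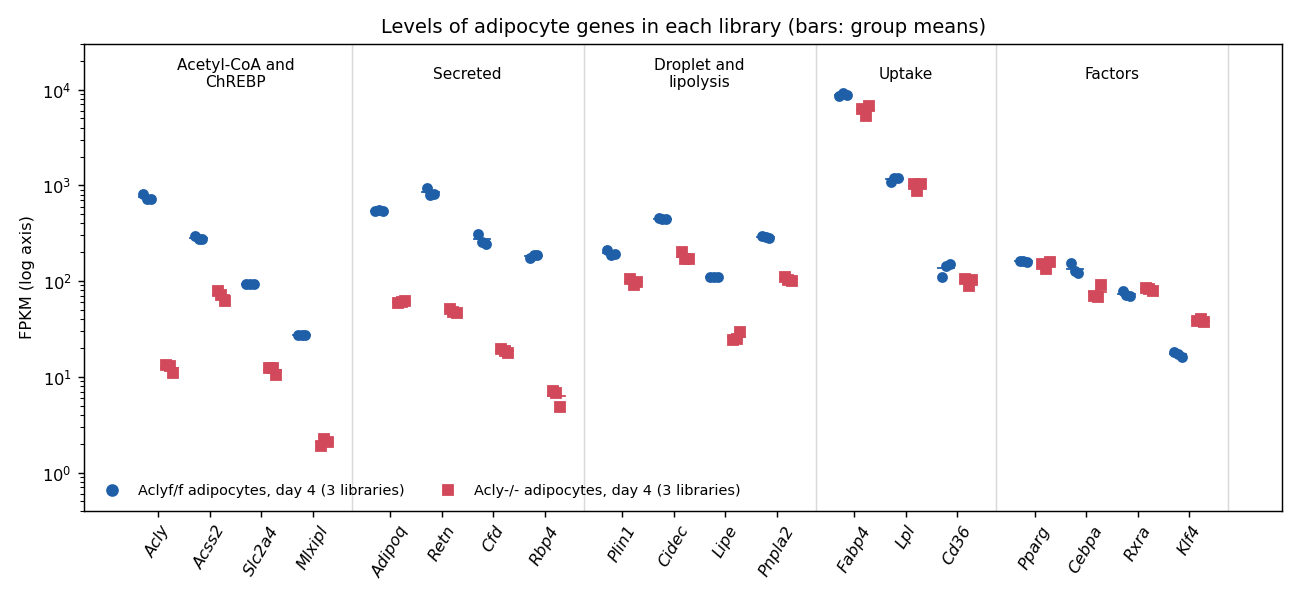
FPKM (log axis) of 19 genes in each of the 6 adipocyte libraries, with circles for Aclyf/f, squares for Acly-/- and bars for group means. Pparg, Lpl and Rxra lie close together in both genotypes, while Acly, Retn, Rbp4 and Mlxipl are more than 10 times apart.

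The ChREBP system fell almost as a whole. Of 12 members tested, 11 were lower, 5 of them by 2-fold or more, with a median log2 fold change of -0.92, and only its relative Mlxip was not called. Mlxipl, which encodes ChREBP itself, stood at 27.3, 27.6 and 27.4 FPKM in Aclyf/f adipocytes and 1.89, 2.27 and 2.07 in Acly-/- adipocytes. Values within a genotype differed by less than 1 FPKM, against a gap of means of 13.2-fold. The insulin-regulated glucose transporter GLUT4 (Slc2a4) fell from 94.2, 92.7 and 94.1 to 12.2, 12.3 and 10.4 FPKM. Even larger falls were seen for the lipogenic nuclear protein Thrsp, at 47.2-fold, and Gpd1, which makes the glycerol backbone of triglyceride, at 17.5-fold.

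Most genes of fatty acid synthesis were lower too. Of the 19 genes tested, 14 fell and 2 rose, with a median of -0.74. Fasn, fatty acid synthase, stood at 673, 602 and 607 FPKM in the Aclyf/f libraries and 110.2, 105 and 72.4 in the Acly-/- libraries. Acly-/- library 3 was the lowest of its group, and no Acly-/- library came near the controls (log2 fold change -2.72, SE 0.13, adjusted p = 2e-09). Acaca, acetyl-CoA carboxylase 1, which commits acetyl-CoA to the pathway, went from 169, 176 and 176 to 50.8, 47.3 and 37.5 FPKM. Scd1, which desaturates stearate, was at 583, 478 and 472 FPKM without Acly against 1429, 1442 and 1429 with it. The 2 that rose were the elongase Elovl1 and the dehydratase Hacd3, by 1.17-fold and 1.25-fold, and once FPKM sums were equalised neither was called. Elovl1 also lost its call without Aclyf/f library 2 or 3 or Acly-/- library 1 or 2 (adjusted p = 0.0876, 0.141, 0.113 and 0.0766, limma). Elovl5, Elovl6 and Hsd17b12 were not called. Srebf1, the lipogenic factor SREBP1, was 1.49-fold lower.

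NADPH, the reductant of lipogenesis, comes from the pentose phosphate pathway, malic enzyme and isocitrate dehydrogenase. Of 12 such genes, 7 fell and 3 rose. Malic enzyme 1 (Me1) fell from 250.2, 259.6 and 260.2 to 119.6, 103 and 115 FPKM and the pentose phosphate enzyme Taldo1 from 319.8, 300.2 and 289.9 to 116, 104 and 124. Cytosolic isocitrate dehydrogenase (Idh1), which also makes NADPH, went the other way, from 203, 201 and 208 to 292, 278 and 304 FPKM (log2 fold change 0.51, adjusted p = 1.3e-05). No library of one genotype reached the range of the other for these 3 genes, which was also so for 63.2% of all genes tested.

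Storage and release of fat were affected unevenly. Of 17 triglyceride synthesis genes tested, 9 fell and 2 rose (median -0.31). Agpat2, an acyltransferase needed for fat storage, stood at 367, 321 and 304 against 126, 119.8 and 113 FPKM. Dgat1, which adds the last acyl chain, fell 2.35-fold, and the phosphatase Lpin1 2.05-fold. Lpin3, a less studied relative, rose instead, from 4.46, 3.57 and 4.78 to 10.3, 12.7 and 11.04 FPKM. On the droplet itself 5 of 14 genes fell and 1 rose, and 8 were not called (median -0.14). Leaving out Aclyf/f library 1 brought the number of falls to 3. Plin1, the coat protein that gates lipolysis, went from 210.0, 186 and 190.0 to 105, 91.7 and 98.1 FPKM, and Bscl2, which encodes seipin, fell 2.09-fold.

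Lipolysis genes had a lower median than the storage genes. Of 15 genes tested, 10 fell, 8 of them by 2-fold or more, and the median was -1.05. The lipases themselves took part. Hormone-sensitive lipase (Lipe) stood at 112, 110.4 and 109 FPKM in Aclyf/f and 24.2, 24.8 and 29.7 in Acly-/- adipocytes, and Pnpla2, the triglyceride lipase ATGL, at 297, 287 and 280.1 and 111, 102 and 99.4. Both are separated between genotypes by more than 2-fold. So were the receptors that start or stop lipolysis. The beta-3 adrenergic receptor (Adrb3) fell from 8.46, 6.37 and 6.22 to 1.497, 1.42 and 1.64 FPKM, and the adenosine receptor Adora1, which inhibits lipolysis, from 10.97, 9.85 and 9.58 to 1.88, 1.61 and 1.80. The 2 members that rose, the stimulatory G protein Gnas and the protein kinase A subunit Prkar2b, did so by 1.17-fold and 1.29-fold, and neither was called once FPKM sums were equalised. Abhd5, G0s2 and Gnai2 were not called.

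Uptake genes lay closer to control levels than the lipolysis genes, though not closer than the storage genes by their median. Fabp4, the fatty acid carrier that is the most abundant of these transcripts, stood at 8492, 9282 and 8733 against 6278, 5343 and 6718 FPKM, a fall of 1.45-fold. Lipoprotein lipase (Lpl) was at 1096, 1193 and 1200 against 1038, 878 and 1037 FPKM, and its small difference (log2 fold change -0.24, adjusted p = 0.0295) was lost without the filter on low values (adjusted p = 0.0525), with a replicate block (0.0525) and without Aclyf/f library 2, Aclyf/f library 3 or Acly-/- library 2 (0.0894, 0.0904 and 0.137). In the group of 15, 9 fell and 3 rose (median -0.34). Dbi, which binds acyl-CoA, fell from 1232, 1268 and 1142 to 499, 438 and 538 FPKM, and Acsl1, the main acyl-CoA synthetase of fat cells, fell 2.08-fold. Its relative Acsl5 rose 1.51-fold, and the lipoprotein receptors Lrp1 and Vldlr rose 1.83-fold and 1.33-fold.

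Glycolysis had the lowest median of all the lists, at -1.19. Of 23 genes tested, 20 fell and none rose, 13 of them by 2-fold or more, against 29.2% and 4.42% of all genes. Hk1, Ldhb and the lactate transporter Slc16a1 were the 3 that were not called. Pgk1, phosphoglycerate kinase, stood at 909, 999 and 1027 FPKM in Aclyf/f and 327, 289 and 355 in Acly-/- adipocytes. Pfkfb3, which sets the level of the glycolytic activator fructose 2,6-bisphosphate, fell from 31.97, 31.5 and 31.3 to 6.27, 7.16 and 5.98 FPKM. The lactate exporter Slc16a3 fell 8.03-fold and the aldolase Aldoc 12.9-fold.

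Glycogen metabolism fell too, in 11 of 12 genes tested, with a median of -0.80. Ppp1r3b, which brings the phosphatase PP1 to glycogen and so favours its synthesis, stood at 21.1, 21.9 and 23.6 against 1.89, 2.03 and 2.25 FPKM, more than 10 times apart. The branching enzyme Gbe1 fell 3.61-fold and the phosphorylase Pygb 3.03-fold. Pgm1 was not called. In insulin signalling 15 of 24 genes fell and 3 rose (median -0.49). The adaptor Sh2b2 fell from 54.04, 49.9 and 50.4 to 15.6, 14.2 and 13.9 FPKM and Akt2, the kinase isoform tied to glucose uptake, from 85.1, 79.7 and 77.96 to 41.5, 41.8 and 44.8. The insulin receptor substrates Irs1 and Irs2 fell 1.47-fold and 1.45-fold. Those that rose included the adaptor Grb10 (1.29-fold) and the kinase isoform Akt1 (1.39-fold).

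Most genes that supply or move acetyl-CoA and its precursors fell as well. Of 18 tested, 15 fell and 2 rose, with a median of -0.89. Acss2, the acetate-using enzyme, stood at 295, 278 and 273 FPKM in Aclyf/f and 79.03, 72.03 and 61.5 in Acly-/- adipocytes, a 3.98-fold fall. The citrate carrier Slc25a1, which exports the substrate of Acly from mitochondria, fell from 516, 473 and 461 to 132, 139 and 147 FPKM. Pdhb, a subunit of the pyruvate dehydrogenase complex, fell 3.003-fold. Regulators of that complex split. Its inhibitory kinase Pdk1 fell 3.35-fold while the related kinase Pdk4 rose 1.54-fold, and the activating phosphatase Pdp1 rose from 11.1, 11.8 and 11.98 to 34.4, 37.9 and 31.4 FPKM. Dld was the member not called.

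Mitochondrial oxidation was lower across several pathways. In the TCA cycle 14 of 18 genes fell and none rose (median -0.39). Citrate synthase (Cs) stood at 426, 430.1 and 430.0 against 184, 174 and 177 FPKM, a gap many times the spread within either group. In mitochondrial fatty acid oxidation 16 of 18 fell (median -0.64), with Acadm, the medium-chain dehydrogenase, at 217, 224 and 217 against 100.4, 93.6 and 106 FPKM. The 1 gene that rose was Cpt1a, the carnitine palmitoyltransferase that admits fatty acids to mitochondria, from 4.65, 4.64 and 5.403 to 8.52, 9.54 and 8.34 FPKM. Breakdown of branched-chain amino acids, a known carbon source of fat cell lipogenesis, fell in 20 of 24 genes (median -0.62). The dehydrogenase subunit Bckdha went from 157, 132 and 122 to 43.1, 42.9 and 33.9 FPKM and the mitochondrial transaminase Bcat2 from 284, 243 and 258 to 131, 125 and 134. Bcat1, the cytosolic transaminase, rose 5.08-fold, from 2.22, 2.69 and 2.01 to 12.1, 10.7 and 12.3 FPKM, so the paired isoenzymes moved in opposite directions.

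Peroxisomal genes fell in 19 of 29 (median -0.55). Ehhadh, the bifunctional enzyme of peroxisomal oxidation, stood at 21.2, 22.4 and 22.02 against 3.14, 3.11 and 2.88 FPKM, and Pex11a, which helps peroxisomes divide, fell 2.88-fold. Among 38 mitochondrial carriers 22 fell and 4 rose. The dicarboxylate carrier Slc25a10, which exchanges malate for phosphate, fell from 204, 192 and 192 to 40.7, 40.2 and 38.7 FPKM, whereas the ATP-magnesium carrier Slc25a24 rose 2.05-fold.

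Respiratory chain subunits changed less in size. Of 36 complex I genes 16 fell and 1 rose, of 9 complex III genes 7 fell, of 12 complex IV genes 5 fell and 1 rose, and of 17 ATP synthase genes 6 fell. Without Acly-/- library 2 only 3 genes were called lower in complex IV and 3 in ATP synthase. The same held for complex IV without Aclyf/f library 1 and for ATP synthase without Acly-/- library 1. All of these falls but that of Cox7a1 were under 2-fold. Atp5b, the catalytic beta subunit, went from 1236, 1126 and 1149 to 840.3, 833 and 856 FPKM, and Uqcrfs1, the iron-sulfur protein of complex III, fell 1.76-fold. Cox7a1, a tissue-restricted subunit of complex IV, stood at 32.1, 34.1 and 24.6 against 1.13, 1.75 and 0.8697 FPKM. Mitochondrial ribosomal proteins fell in 30 of 77 and rose in 2 (median -0.16). In mitochondrial biogenesis 11 of 27 fell and 4 rose. The protease Lonp1 fell 1.73-fold, while the chaperonins Hspd1 and Hspe1 rose 1.38-fold and 1.46-fold. Uncoupling protein 2 (Ucp2) fell from 26.02, 27.5 and 25.2 to 5.61, 5.04 and 4.97 FPKM.

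Cholesterol synthesis fell in 16 of 26 genes and rose in 1 (median -0.50). Phosphomevalonate kinase (Pmvk) went from 211, 187 and 177 to 52.9, 48.3 and 53.2 FPKM and Insig1, which holds the SREBP complex in the endoplasmic reticulum, from 323, 347 and 342 to 180.5, 161 and 155. The single rise, Scap at 1.23-fold, was not called under 9 of the alternatives tried. Amino acid metabolism fell in 14 of 22 and rose in 5. Gpt, an alanine transaminase, stood at 22.97, 18.9 and 19.04 against 2.69, 2.46 and 2.495 FPKM, and its mitochondrial relative Gpt2 fell 2.69-fold. The aspartate transaminase Got2 rose 1.61-fold and Odc1, the first enzyme of polyamine synthesis, 2.11-fold. In the circadian clock 10 of 17 fell and 2 rose. The clock output factor Dbp fell 1.94-fold. Hypoxia-responsive genes fell in 14 of 19. Egln3, an oxygen-sensing prolyl hydroxylase, went from 11.5, 15.4 and 14.5 to 0.848, 0.138 and 0.466 FPKM and the mitophagy receptor Bnip3 from 352, 422 and 419.6 to 131, 108 and 131. Hif1a itself was the 1 member that rose, 1.55-fold.

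**Figure D3:**
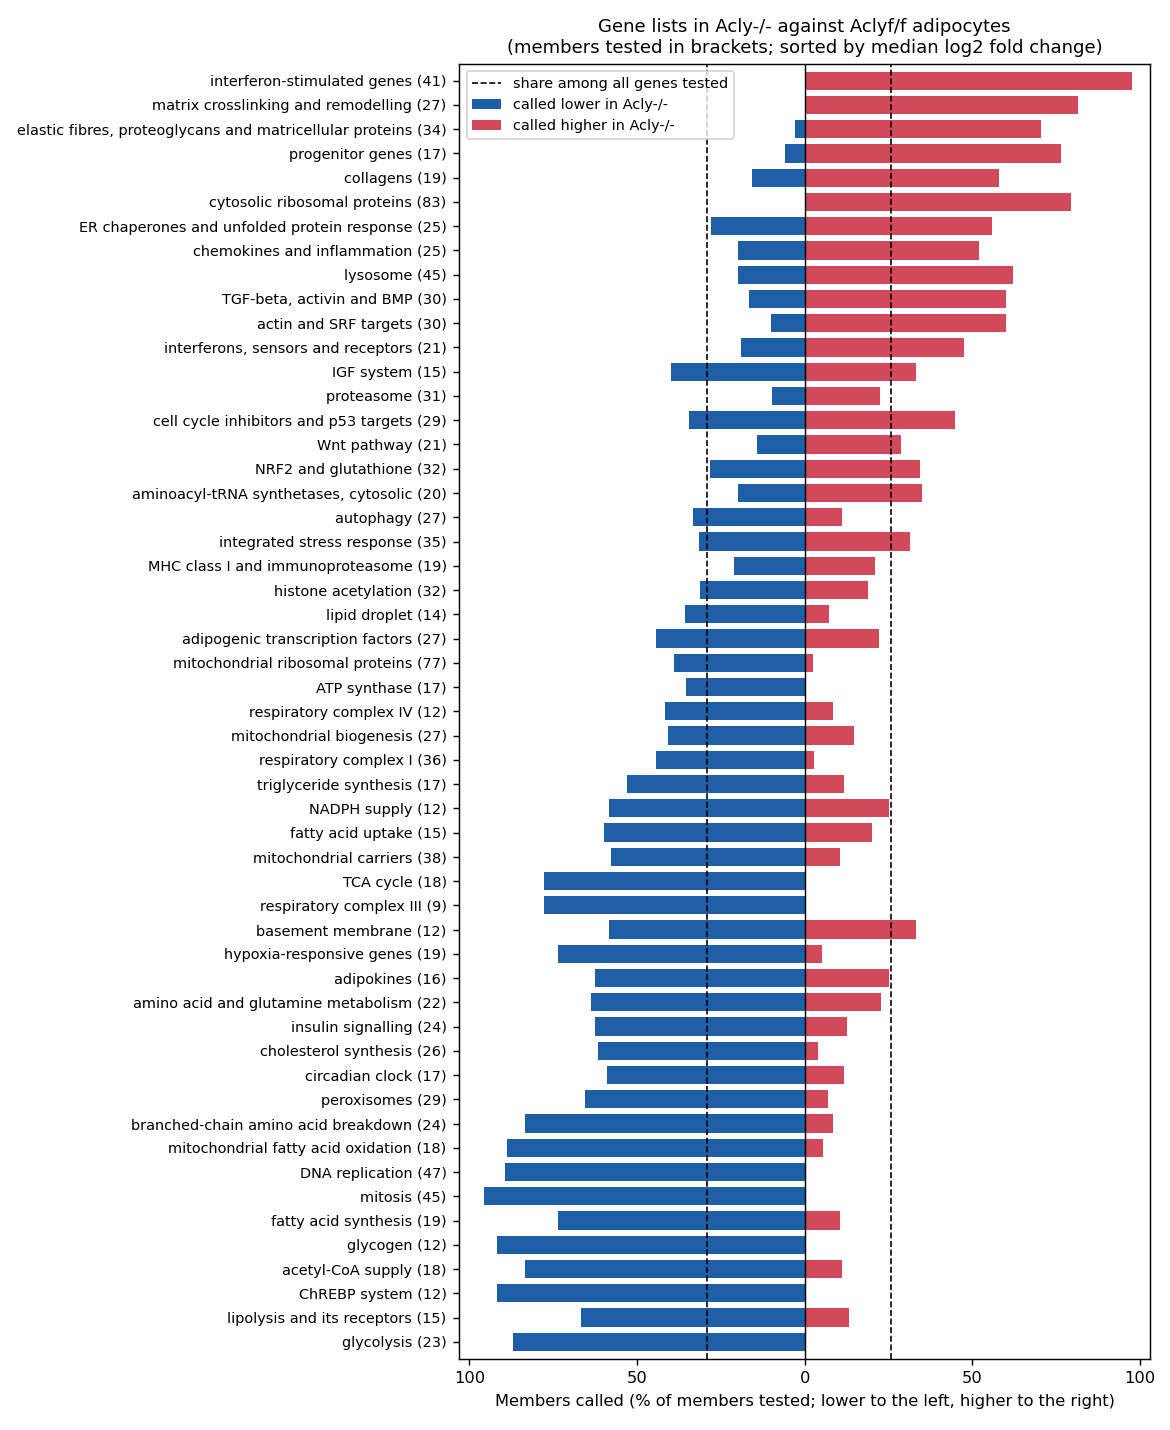
For each gene list, the bars give the percentage of members tested that were called lower (left, blue) or higher (right, red) in Acly-/- adipocytes, sorted by median log2 fold change, with the number tested in brackets. Dashed lines mark the shares among all genes tested, 29.2% lower and 25.6% higher, and lists from interferon-stimulated genes to glycolysis run from nearly all higher to nearly all lower.

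Interferon-stimulated genes rose together. Of 41 tested, 40 were higher without Acly, 28 of them by 2-fold or more, against 25.6% and 3.53% of all genes, and the median log2 fold change was 1.39. Ifi27 was the only member not called, and once FPKM sums were equalised or without Aclyf/f library 2 a single member was called lower. Ifi44 stood at 4.27, 3.21 and 3.04 FPKM in Aclyf/f and 55.1, 47.8 and 43.95 in Acly-/- adipocytes. Oas2, which makes the messenger that activates RNase L, rose from 0.968, 0.547 and 0.643 to 14.4, 17.04 and 11.01 FPKM. Ifit3, which restrains viral RNA, rose from 21.2, 12.8 and 12.4 to 96.2, 98.5 and 85.7. In each of these genes Aclyf/f library 1 was the highest of its group, and every Acly-/- library still lay far above it. Irf7, the factor that amplifies the interferon response, stood at 37.7, 25.3 and 24.02 against 138, 133 and 119.8 FPKM (log2 fold change 2.15, SE 0.17, adjusted p = 1.87e-07). The oligoadenylate synthetase-like gene Oasl1 rose 6.06-fold. Oas genes are close paralogs, and the sources used here do not say how fragments were split between them. The leukocyte markers at or near the floor were given above.

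Many of these genes carry an interferon-stimulated response element near their start. The element was searched as GAAA, any 2 bases and GAAA on both strands of RefSeq promoters (GRCm38.p6, 250 bases before to 50 after the start). They were found in 15 of 33 promoters of the list (45.5%), belonging to 14 of 30 genes with a promoter in the table, against 3.44% of all 32851 promoters. Windows around 1 match each are shown for 6 genes that rose, picked after their values were seen, because they let the shared letters be compared. Capitals mark the match, read from the strand of the gene, so the blocks read TTTC where the element lies on the opposite strand. A match is a description and does not show binding.
Isg15 (chr4:156200861-156200910, minus strand): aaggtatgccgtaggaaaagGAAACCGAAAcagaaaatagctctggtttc
Oas3 (chr5:120777705-120777754, minus strand): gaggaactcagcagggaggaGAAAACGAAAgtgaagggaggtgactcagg
Bst2 (chr8:71537567-71537616, minus strand): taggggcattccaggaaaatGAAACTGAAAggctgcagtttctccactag
Rsad2 (chr12:26456543-26456592, minus strand): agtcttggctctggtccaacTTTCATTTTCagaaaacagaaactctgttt
Ifit3 (chr19:34583387-34583436, plus strand): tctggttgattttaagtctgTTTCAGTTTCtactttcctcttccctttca
Ifit1 (chr19:34640784-34640833, plus strand): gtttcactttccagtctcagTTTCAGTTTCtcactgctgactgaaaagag
The match ends 63 bases before the start in Isg15, an antiviral ubiquitin-like protein, and 76 bases before it in Ifit1, a sensor of viral RNA caps. In Isg15 it overlaps 2 further matches. Isg15 levels were 115, 56.7 and 63.5 against 204, 178 and 211 FPKM and Ifit1 levels 22.6, 18.02 and 15.6 against 102, 104 and 96.2. Rsad2, the antiviral enzyme viperin, rose from 3.905, 2.64 and 2.44 to 19.6, 17.99 and 15.03 FPKM and Bst2, the tether of budding viruses, from 202, 127 and 133 to 334, 305 and 347. None of these 4 genes overlapped between genotypes, but neither did 63.2% of all genes tested.

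The machinery upstream of these genes did not move as one. Of 21 interferon, sensor and receptor genes tested, 10 rose and 4 fell. The RNA sensor RIG-I (Ddx58) went from 23.9, 21.4 and 22.8 to 57.5, 53.2 and 52.6 FPKM, Tlr3 rose 2.92-fold, the RNA editor Adar 2.18-fold and the nucleotide hydrolase Samhd1 2.33-fold. The adaptor Mavs, through which RIG-I signals, fell from 32.8, 32.03 and 31.6 to 20.1, 20.2 and 19.6 FPKM, and the kinase Tbk1, the receptor Ifngr1 and the factor Irf1 fell 1.28-fold, 1.51-fold and 1.44-fold. In antigen presentation 4 of 19 genes were higher, 4 lower and 11 not called (median -0.09). Among all genes tested 25.6% were higher and 29.2% lower, so these counts are not read as a direction. The lower count was 8 once FPKM sums were equalised, 7 without Acly-/- preadipocyte library 3 and 2 without Aclyf/f adipocyte library 1. B2m, the light chain of MHC class I, rose from 1886, 1994 and 1940 to 3817, 3798 and 4270 FPKM. The immunoproteasome subunit Psmb9 fell from 152, 114 and 114 to 67.0, 70.97 and 75.7 FPKM. H2 genes are near copies of each other, so their separate values are uncertain.

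Several chemokines rose while some inflammatory regulators fell. Of 25 genes tested, 13 rose, 10 of them by 2-fold or more, and 5 fell (median 0.44, and 0.02 with no filter on low values). Ccl7, which attracts monocytes, stood at 7.48, 5.56 and 6.84 FPKM in Aclyf/f and 58.5, 51.2 and 57.4 in Acly-/- adipocytes. Its neighbour Ccl2 rose from 1.096, 1.65 and 1.35 to 12.7, 9.905 and 14.9 FPKM, and the acute-phase protein Saa3 from 3.31, 2.14 and 1.21 to 21.6, 21.9 and 17.7. Ccl8 was under 1 FPKM in all Aclyf/f adipocytes and at 6.69, 8.07 and 6.66 FPKM in Acly-/- adipocytes. The 5 that fell were Hp, Relb, Tnfaip3, Il1rn and Nfkb1. Haptoglobin (Hp), which mature fat cells secrete, fell from 664, 545 and 552 to 249, 199.5 and 233 FPKM, and Tnfaip3, which dampens NF-kappaB signalling, fell 1.39-fold.

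Stress pathways had no shared direction. In the integrated stress response, the programme run by the factor ATF4, 11 of 35 genes rose and 11 fell (median -0.07). These counts are near the 25.6% higher and 29.2% lower among all genes tested. Without Acly-/- library 2 the number of falls was 7. Gdf15, a stress hormone, stood at 26.5, 23.3 and 28.8 against 109, 107 and 105 FPKM, while the serine enzyme Psat1 fell from 316, 359.5 and 356 to 225, 211 and 228. The letters TGATGNAA of the amino acid response element were found in 10 of 36 promoters of that list (27.8%) and in 3.97% of all promoters. Among cytosolic tRNA synthetases 7 of 20 rose and 4 fell, and equalising FPKM sums turned this to 4 and 7. Leaving out single adipocyte libraries brought the lower count down to 1 (Aclyf/f library 2 or 3, Acly-/- library 2 or 3) or the higher count to 4 (Acly-/- library 1). In the endoplasmic reticulum 14 of 25 chaperone and stress genes rose and 7 fell (median 0.45). The chaperone Calr rose from 254, 231 and 216 to 451, 478 and 553 FPKM and the disulfide isomerase Pdia3 from 118, 120.2 and 116 to 269, 268 and 312. The stress sensors Ern1 and Atf6 fell 1.44-fold and 1.29-fold. Among NRF2 and glutathione genes 11 of 32 rose and 9 fell, again near the shares of all genes tested. Heme oxygenase (Hmox1) fell from 245, 307 and 301 to 124, 117 and 119 FPKM and the iron store Fth1 rose from 2676, 2855 and 2600 to 6049, 5936 and 6408.

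Of 45 lysosomal genes, 28 rose and 9 fell (median 0.40). The protease cathepsin K (Ctsk) went from 21.0, 19.3 and 18.3 to 91.05, 82.3 and 83.1 FPKM, and Gpnmb, a glycoprotein of stressed lysosomes, from 14.2, 11.4 and 10.4 to 54.7, 67.5 and 55.1. Cd68, a lysosomal membrane protein known mostly from macrophages, rose from 1.895, 1.33 and 1.27 to 34.4, 28.99 and 34.4 FPKM. The macrophage marker Adgre1 was at the floor in 5 of the 6 libraries and reached 0.0292 FPKM in the other. Csf1r was not tested. Its very low values were higher without Acly, at 0.0241, 0.0188 and 0.01 against 0.1145, 0.351 and 0.0971 FPKM. Tfeb, the factor that drives lysosome genes, was lower, at 10.99, 9.398 and 9.68 against 4.23, 4.84 and 5.23 FPKM. In autophagy 3 of 27 rose and 9 fell, with the initiating kinase Ulk1 1.72-fold lower. Without Acly-/- library 1 or 3, 1 autophagy gene was called higher.

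Extracellular matrix genes stood higher without Acly. Of 19 collagens tested, 11 rose and 3 fell (median 0.56, and 0.14 with no filter on low values). The chain Col6a3 went from 188, 156 and 164 to 476, 487 and 367 FPKM and the main fibril chain Col1a1 from 84.9, 53.7 and 58.8 to 154, 183 and 162. Col15a1, a basement membrane collagen of fat, fell 2.08-fold. Enzymes that crosslink and remodel matrix rose in 22 of 27 and fell in none (median 0.77), against 25.6% of all genes. After equalising FPKM sums 2 of them were called lower, and without Acly-/- library 3 1 was. Lox, which crosslinks collagen and elastin, stood at 315, 364 and 383 FPKM in Aclyf/f and 1169, 1239 and 1090 in Acly-/- adipocytes. The inhibitor Timp2 rose from 32.1, 24.8 and 24.6 to 119, 140.4 and 122 FPKM, and the proteases Mmp14 and Mmp2 rose 2.98-fold and 3.56-fold. Plod1, Plod2, P4ha1, P4ha2 and Adamts1 were not called.

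Elastic fibre, proteoglycan and matricellular genes rose in 24 of 34 genes tested, 13 of them by 2-fold or more (median 0.77). The connective tissue growth factor Ctgf went from 6.74, 6.31 and 5.75 to 25.8, 27.1 and 38.8 FPKM, and the small proteoglycans Aspn and Ogn rose 4.17-fold and 3.93-fold. The proteoglycan Dcn was the only member that fell, from 9.03, 7.14 and 7.102 to 3.96, 3.89 and 3.44 FPKM. Basement membrane genes went mostly the other way, with 7 of 12 lower and 4 higher. The laminin chain Lama4 fell from 43.95, 43.97 and 44.2 to 1.46, 1.18 and 0.935 FPKM, and Nid2, which links laminin to collagen, fell 2.92-fold.

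Progenitor genes and actin genes were more often higher than lower. Of 17 progenitor genes, 13 rose and 1 fell (median 0.76, and 0.33 with no filter on low values), and without Acly-/- library 2 the number of falls was 2. Ly6a, the stem cell antigen Sca-1, stood at 167, 106 and 110.2 FPKM in Aclyf/f and 673, 619 and 655 in Acly-/- adipocytes. The growth factor receptor Pdgfra rose from 15.9, 15.3 and 15.2 to 29.99, 32.6 and 28.4 FPKM and its relative Pdgfrb 2.78-fold. Nt5e, the ectoenzyme CD73, fell from 2.23, 2.43 and 2.66 to 0.0622, 0.152 and 0.0791 FPKM. Dlk1, a classic preadipocyte gene, stayed under 0.2 FPKM in all 6 libraries. Cd34, also on the progenitor list, was not tested. Its low values went the other way, from 1.475, 0.851 and 0.902 FPKM in Aclyf/f to 0.324, 0.528 and 0.342 in Acly-/- adipocytes. Of 30 actin and SRF target genes 18 rose and 3 fell (median 0.36), with Acta2, smooth muscle actin, at 24.4, 14.3 and 13.4 against 40.5, 45.1 and 48.8 FPKM and Fhl2 2.66-fold higher. Of the 8 smooth muscle and pericyte markers 4 were tested, and of those 2 fell and 2 were not called. The adhesion molecule Mcam went from 19.9, 18.98 and 19.4 to 1.05, 1.15 and 1.02 FPKM and the smooth muscle myosin Myh11 from 7.67, 6.68 and 6.53 to 3.46, 3.204 and 2.76. Runx2, the bone-forming factor, rose 1.81-fold. The smooth muscle and bone marker sums given above moved with these genes, and their part in the results was not tested.

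Growth factor genes gave further contrasts. In the TGF-beta, activin and BMP list 18 of 30 rose and 5 fell (median 0.39, and 0.23 with no filter on low values). Tgfb2 rose from 4.65, 5.19 and 4.95 to 26.7, 24.8 and 22.7 FPKM while Tgfb1 fell from 27.5, 24.2 and 24.4 to 13.5, 16.1 and 14.6, so the ligands diverged. Acvr1c, the activin receptor ALK7 of mature fat cells, fell from 4.72, 6.53 and 7.39 to 0.275, 0.264 and 0.159 FPKM. In the Wnt pathway 6 of 21 rose and 3 fell (6 fell once FPKM sums were equalised), with the receptor Fzd1 1.63-fold higher and the secreted inhibitor Dkk2 2.42-fold lower. In the IGF system 5 of 15 rose and 6 fell. Igfbp4, which restrains IGF, fell from 223, 201 and 206 to 105, 89.5 and 109.8 FPKM, and the protease that cleaves it, Pappa, rose from 1.11, 1.24 and 1.15 to 4.91, 5.19 and 4.13.

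Cell division genes fell as a block. Of 47 DNA replication genes, 42 fell and none rose (median -0.70), and of 45 mitosis genes 43 fell and none rose (median -0.73), against 29.2% lower among all genes. Thymidine kinase (Tk1) stood at 103, 102 and 96.1 FPKM in Aclyf/f and 37.99, 38.4 and 40.6 in Acly-/- adipocytes. Cdt1, which licenses replication origins, went from 82.6, 83.1 and 83.4 to 35.4, 36.4 and 34.7 FPKM. The proliferation marker Mki67 fell from 33.0, 36.7 and 34.5 to 16.1, 17.1 and 13.7 FPKM and the mitotic kinase Aurkb from 27.8, 26.9 and 26.4 to 12.5, 13.4 and 12.04. None of these 4 genes overlapped, but neither did 63.2% of all genes tested, so this is not read as a trait of the lists. Orc6, Gins3, Pola1, Rrm2 and Dut in the replication list and Casc5 and Smc4 in the mitosis list were not called.

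The mitosis list also shares a promoter element, the cell cycle genes homology region, searched here as TTTGAA on both strands. It was found in 25 of 37 promoters (67.6%) of 24 genes, against 17.9% of all promoters. Windows for 4 members that fell, picked after their values were seen, show the match in capitals, read from the strand of the gene.
Mki67 (chr7:135716452-135716497, minus strand): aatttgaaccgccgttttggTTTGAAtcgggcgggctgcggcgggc
Cdk1 (chr10:69352958-69353003, minus strand): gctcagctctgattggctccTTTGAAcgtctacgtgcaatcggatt
Top2a (chr11:99024343-99024388, minus strand): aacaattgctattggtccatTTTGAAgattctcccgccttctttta
Espl1 (chr15:102296246-102296291, plus strand): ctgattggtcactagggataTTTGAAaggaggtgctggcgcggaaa
Cdk1, the mitotic kinase, stood at 59.5, 54.8 and 52.8 against 27.6, 25.8 and 30.2 FPKM. Top2a, which untangles chromosomes, went from 64.95, 73.8 and 74.2 to 39.4, 38.01 and 39.8 FPKM and the separase Espl1 from 7.65, 7.97 and 8.12 to 3.08, 4.14 and 3.28. In Mki67 the marked match begins 98 bases before the start, and the window also holds a further match, in lower case, that begins 116 bases before it. Other searches gave fewer matches. The letters TCACNCCAC of the sterol element were found in 1 of 25 promoters (4.0%) of the cholesterol list against 1.24% of all, and the carbohydrate element, CACGTG repeated after any 5 bases, in 0 of 13 of the ChREBP list and in 0% of all promoters. No match says only that these letters are not in these windows.

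**Figure D4:**
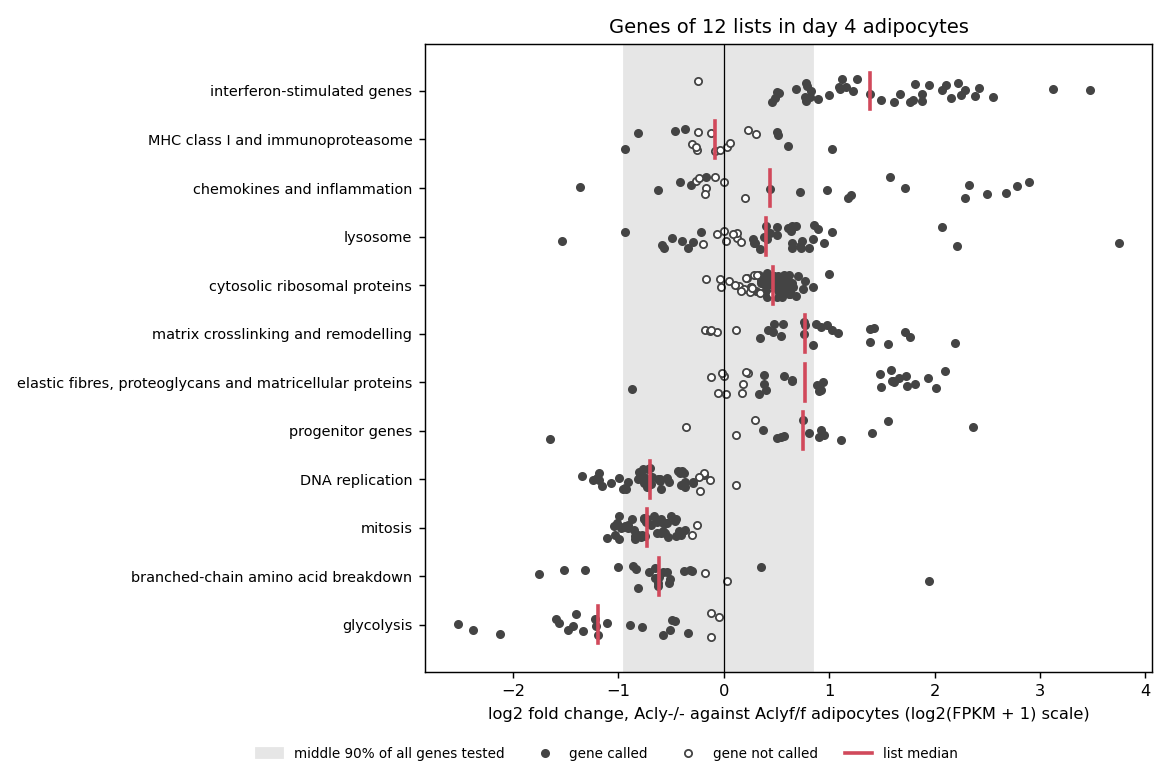
Log2 fold changes of single genes (points, filled where called) in 12 lists, with the list median as a red line and the middle 90% of all genes tested shaded. Interferon-stimulated genes reach 3.48 (Ifi44), and the 45 mitosis genes all lie below 0.

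Inhibitors of the cell cycle and p53 targets rose in 13 of 29 and fell in 10. Cdkn1a, the inhibitor p21, stood at 203, 183 and 190.2 against 296, 308 and 302 FPKM. Plk2 rose from 5.49, 5.75 and 5.01 to 30.6, 29.4 and 25.04 FPKM and cyclin G1 (Ccng1) from 56.7, 61.8 and 62.7 to 170.1, 176 and 173. The INK4 inhibitors diverged, with Cdkn2b 2.401-fold higher and Cdkn2d 3.39-fold lower.

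Of 83 cytosolic ribosomal protein genes 66 rose and none fell (median 0.46). Under quantile normalization 46 were higher and 1 lower, and the median was 0.23. Log2 fold changes ran from -0.17 to 1.00. Rps24 stood at 1134, 1145 and 1071 against 1787, 1721 and 2248 FPKM, and Rps25 at 654, 602 and 548 against 987, 937 and 1109. In both, Acly-/- library 3 was the highest. These genes have many processed copies in the genome, so fragments may be shared. Proteasome subunits rose in 7 of 31 and fell in 3, counts that turned to 2 and 5 once FPKM sums were equalised. Without Acly-/- library 3, 5 of them were called lower. Histone acetylation, the nuclear use of acetyl-CoA, had no common direction in its writers and erasers, with 6 of 32 higher (3 once FPKM sums were equalised) and 10 lower. Kat2a, the acetyltransferase GCN5, rose from 17.3, 14.5 and 14.1 to 22.96, 22.5 and 21.7 FPKM, and the deacetylase Hdac11 fell from 10.3, 10.3 and 10.8 to 4.11, 4.92 and 4.41. The mitochondrial deacylases Sirt3 and Sirt5 fell 2.22-fold and 1.903-fold.

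For many of these genes the effect of Acly loss differed between stages. The difference between the effect in adipocytes and the effect in preadipocytes passed limma's test for 5908 genes (50.2%), 2795 with a higher log2 fold change in adipocytes (23.7%) and 3113 with a lower one (26.4%). It was at least 1 in size for 1459 of them (12.4%), 672 higher (5.71%) and 787 lower (6.68%). In preadipocytes alone 4966 genes differed (42.2%), 2325 higher (19.7%) and 2641 lower (22.4%), and 602 did so by 2-fold or more (5.11%), 350 higher (2.97%) and 252 lower (2.14%). Of the 3013 genes higher in adipocytes, 835 were also higher in preadipocytes, which is 27.7% of the first set and 35.9% of the second. A further 628 were lower there, 20.8% of the adipocyte set and 23.8% of the preadipocyte set. Of the 3439 genes lower in adipocytes, 898 were lower in preadipocytes, 26.1% and 34.0% of the sets, and 559 higher, 16.3% and 24.0%.

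Lipid synthesis genes fell in adipocytes and rose in preadipocytes. Fasn was at 22.1, 22.6 and 21.2 FPKM in Aclyf/f preadipocytes and 71.5, 70.05 and 84.2 in Acly-/- preadipocytes, a 3.43-fold rise where adipocytes fell. The difference between stages (adipocyte minus preadipocyte log2 fold change) was -4.45 (adjusted p = 1.51e-09). Acss2 rose from a mean of 4.51 to 16.4 FPKM in preadipocytes (difference between stages -3.64) and Scd1 from 24.3 to 74.7 (-3.08). Of the 19 fatty acid synthesis genes, 13 rose in preadipocytes, and of the 26 cholesterol genes 22 did. Glycolysis genes rose in 16 of 23 in preadipocytes. The integrated stress response rose in 30 of 35 there and its difference between stages was called lower in 29. The median of the tRNA synthetases was 0.78 at day 0 and -0.01 at day 4, the latter changing sign with the scaling.

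Lysosome and actin genes showed the opposite order. In preadipocytes 24 of 45 lysosomal genes fell and 2 rose, and 35 had a difference between stages called higher in adipocytes. Ctsk stood at 91.6, 88.2 and 81.4 FPKM in Aclyf/f and 56.1, 60.8 and 61.0 in Acly-/- preadipocytes, and Gpnmb fell 2.501-fold there. Of the 30 actin and SRF targets, 25 fell in preadipocytes and none rose. Acta2 was at 406, 404 and 392 against 120.1, 135 and 133 FPKM at day 0 (difference between stages 2.99, adjusted p = 2.66e-07). Pdgfra fell from a mean of 131 to 72.1 FPKM in preadipocytes. The interferon list rose at both stages. It rose in 40 of 41 in preadipocytes with a median of 1.84, and the difference between stages was lower in 22 and higher in 3. Irf7 rose from a mean of 25.1 to 216 FPKM at day 0. Both cell division lists had medians near 0 in preadipocytes, 0.03 for replication and -0.08 for mitosis.

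**Figure D5:**
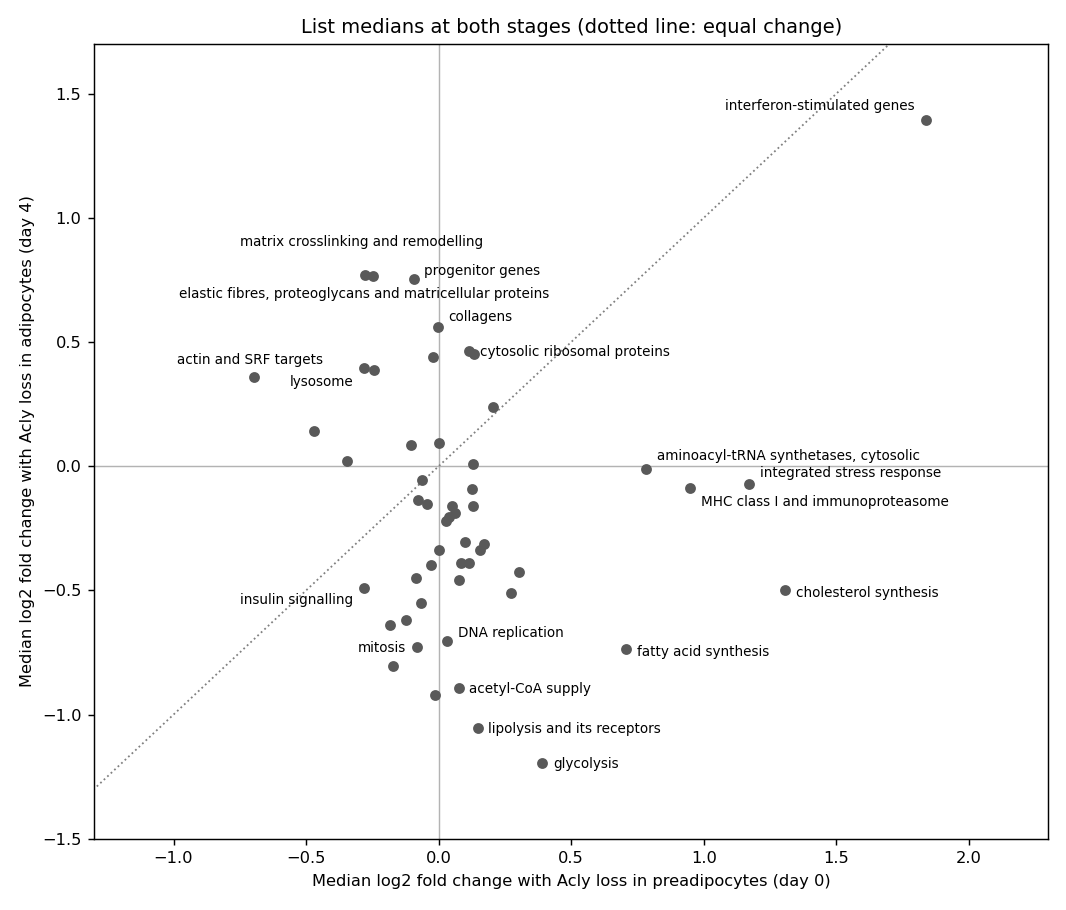
Each point is a gene list, with its median log2 fold change with Acly loss in preadipocytes on the x axis and in adipocytes on the y axis, and the dotted line marks equal change. Cholesterol and fatty acid synthesis lie at lower right, actin and lysosome lists at upper left, and interferon-stimulated genes are high at both stages (1.84 and 1.39).

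Genes that were lower than in Aclyf/f adipocytes differed in how they stood against day 0 in Acly-/- cells. Between day 0 and day 4 in those cells 7232 genes differed (61.4%), 3583 higher (30.4%) and 3649 lower (31%), and by 2-fold or more 1535 (13%), 727 higher (6.17%) and 808 lower (6.86%). Of the 520 genes called 2-fold lower than in Aclyf/f adipocytes, 303 were called higher than at day 0, 101 lower and 116 not called. Adipoq and Lipe were among the 303 that had risen. Adipoq had means of 2.99 FPKM in Acly-/- preadipocytes and 60.7 in Acly-/- adipocytes, against 544 in Aclyf/f adipocytes. The log2 fold change from day 0 in Acly-/- cells was 3.96 (adjusted p = 1.84e-12, limma). Lipe went from 1.71 to 26.2 FPKM without Acly (log2 fold change 3.33). Plin1 is not among the 520, since its fall against Aclyf/f adipocytes (log2 fold change -0.98) was just short of the cut. It went from 0.569 to 98.4 FPKM without Acly (6.01). This comparison uses the same Acly-/- adipocyte libraries as the one between genotypes, so its values are set side by side only.

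Several of the largest changes lie outside the pathways above. Prl2c2, a proliferin of the prolactin family, stood at 2.95, 2.71 and 3.33 FPKM in Aclyf/f and 78.5, 82.8 and 112 in Acly-/- adipocytes, and its near copy Prl2c5 was under 0.2 FPKM in the first group and at 11.1, 4.61 and 11.5 in the second. As for the Oas genes, the split of fragments between such copies is not known. Carboxypeptidase E (Cpe), which trims peptide hormones, went from 11.1, 9.39 and 9.95 to 86.7, 98.5 and 95.8 FPKM, while in preadipocytes it fell (mean 110.5 against 85.8 FPKM, difference between stages 3.45). Apod, a lipid-binding carrier, rose 11.1-fold. Ass1, of the urea cycle, was at 3.45, 0.01 and 3.26 against 16.1, 15.4 and 18.4 FPKM, with Aclyf/f library 2 at the floor, and it shares sequence with the predicted gene Gm5424, so its value is uncertain. Among the falls were the proton-coupled amino acid transporter Slc36a2, from 50.4, 55.5 and 54.3 to 3.76, 3.64 and 2.06 FPKM, the carbonic anhydrase Car3, from 74.5, 59.9 and 57.9 to 5.02, 5.47 and 3.82, and the proline oxidase Prodh, from 28.1, 26.4 and 26.4 to 1.76, 2.05 and 1.32. The mitochondrial carrier Slc25a34 fell from 13.6, 13.3 and 15.1 to 0.465, 0.689 and 0.429 FPKM, and Lrg1, a secreted glycoprotein, from 36.5, 31.9 and 29.4 to 0.992, 1.096 and 0.605. No overlap between genotypes was a condition for naming these largest rises and falls, so it is not a separate result.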

How the data were processed

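RNA-seq was deposited as 1 table of FPKM for 24341 gene entries in 12 libraries, made by the authors with bcl2fastq, Bowtie2 2.2.6 and Cufflinks 2.2.1 on mm10, per the submitters' processing notes. The sources used here do not state the annotation, the strand setting or the treatment of fragments shared between genes. FPKM values are as deposited, with a floor of 0.01. No column was left unmapped to a sample, and 27 symbols that a spreadsheet had turned into dates were not named. Library totals are not in the table, so only relative depth was estimated, from the ratio between libraries that low values above the floor share most often. No interval is given for single values.

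Genes with 1 FPKM or more in 3 or more of the 12 libraries were tested, 11777 in all, and 12564 were not. Values were log2(FPKM + 1), with a pseudocount of 1. One model of 4 group means over all 12 libraries was fitted with limma 3.58.1 in R 4.3.3, with a variance trend on the mean, with the Benjamini-Hochberg adjustment taken over the 11777 genes. Calls are at an adjusted p under 0.05. Python 3.11.15 with matplotlib 3.10.9, pandas 2.3.3 and numpy 2.4.6 was used for the tables and plots. On simulated data with 200 changed genes among 11777, the comparison of day 4 adipocytes recovered 100% of 50 genes at a log2 fold change of -2, 100% at -1, 96% at 1 and 98% at 2, and called 9 unchanged genes. The changed genes were drawn only from those with a mean log2(FPKM + 1) above 2 in Aclyf/f adipocytes. Noise was normal and independent, with the same spread in all groups. Recovery of weaker genes, or with effects shared by a library, was not tested.

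The members, gene lists and key genes were chosen with earlier results of these data known, so list counts are a description beside the background share. Genes were named when they were key genes, among the 15 largest rises or falls with 5 FPKM or more in the higher group and no overlap, among the 4 largest rises or falls of a list at 1 FPKM or more, or among the 10 largest differences between stages. Members named because they did not pass the test or went against their list, and Isg15, Rsad2, Bst2, Ifit1, Oas3, Cdk1, Top2a, Espl1, Rxra and Gm5424, were chosen after their values were seen. Promoters and the coordinates of their windows are from RefSeq on GRCm38.p6, the same build as mm10. The position of Acly is from the locus deposited with its FPKM values. Alternatives were another pseudocount, other filters on low values, 4 scalings, no variance trend, a replicate block, the 6 adipocyte libraries only and leaving out each library in turn. Deviations from the group means of same-numbered libraries correlated at -0.414 to 0.147 over 18 pairs, and above 0.1 in all 3 pairs only between Acly-/- preadipocytes and Acly-/- adipocytes (0.123, 0.147 and 0.124). Some members of the lists are not reported here.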

Additional observations from a re-analysis of the deposited data

Results flagged for a closer look

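In 86 of 353 genes that met the naming rule, the effect of Acly loss passed limma's test with opposite signs in adipocytes and preadipocytes. Among all 11777 genes tested, 628 were called higher in adipocytes and lower in preadipocytes, and 559 the reverse. The difference between stages was called in 100% of both sets, so it adds no further condition. The naming rule picks genes partly for large changes, so its count is not read against the count over all genes. The 10 of the 86 that are described here are those among the key genes and the genes with the largest rises, falls or differences between stages. The values given are the adipocyte log2 fold change minus the preadipocyte one. Lipid synthesis genes fell at day 4 and rose at day 0, with a difference of -4.45 for Fasn, -3.64 for Acss2, -3.08 for Scd1 and -1.56 for Srebf1. The lipase gene Pnpla2 followed the same order, at -1.73 (preadipocyte means of 3.79 FPKM in Aclyf/f and 4.81 in Acly-/- cells). Trib3, a pseudokinase induced by ATF4, had a difference of -4.43. It rose from 2.22, 1.47 and 1.85 FPKM in Aclyf/f to 38.3, 39.2 and 61.3 in Acly-/- preadipocytes, whereas in adipocytes it stood at 144, 134 and 134 against 121, 97.9 and 95.0, and that fall (adjusted p = 0.0466) lost its call under 10 of the alternatives tried, with adjusted p from 0.00611 to 0.146 over all of them.

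The hypoxia-responsive genes Egln3 and Ndufa4l2 had differences of -3.87 and -4.29. Ndufa4l2, a relative of a respiratory chain subunit, stood at 0.678, 0.761 and 0.959 FPKM in Aclyf/f and 2.58, 3.44 and 3.79 in Acly-/- preadipocytes, and at 19.8, 21.7 and 24.9 and 0.944, 2.07 and 2.58 in adipocytes. Egln3 stood at 0.268, 0.335 and 0.2997 and 0.889, 0.626 and 1.18 FPKM in preadipocytes. In the opposite order, the progenitor receptor Pdgfra had a difference of 1.78 and the carboxypeptidase Cpe of 3.45, both falling at day 0 and rising at day 4.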

How the results depend on the processing

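The number of genes called between genotypes in adipocytes was 6452 as reported and 5523 to 6622 over the alternatives that kept all libraries of the comparison. Leaving out 1 library gave 5675 to 6726. The difference between stages was called for 5908 genes, with 5310 to 5831 when 1 library was left out, the preadipocyte effect for 4966 with 4070 to 5111, and the change from day 0 to day 4 without Acly for 7232 with 6567 to 7374. Counts with a log2 fold change of 1 or more moved by over 1.5 times under 1 setting, the pseudocount of 0.1. With it 1425 genes passed in adipocytes in place of 936, 685 of them higher in place of 416. In preadipocytes 1010 passed in place of 602, 540 higher in place of 350 and 470 lower in place of 252. A smaller pseudocount gives larger log2 fold changes to genes with low values. Over all alternatives, 7523 values of named genes kept their direction and their side of the threshold, 139 lost the call and 1 gained it (Pparg), and no called value changed direction.

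The replicate numbers of the labels did not pair the adipocyte libraries across genotypes: the 3 same-numbered pairs had deviations that correlated at -0.293, -0.176 and -0.158. With the replicate block 6125 genes were called in adipocytes and 5516 for the difference between stages. For the change from day 0 to day 4 without Acly, where same-numbered pairs correlated weakly but above 0.1, the block gave 6954 genes in place of 7232. Depth is known only approximately, so no interval is given for single values. Genes that did not reach 1 FPKM in 3 or more of the 12 libraries were not tested. A gene could pass this filter through 1 group alone, as Slc25a34 did through the Aclyf/f adipocytes.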
